A study of Mus musculus with 2 samples.

Results

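The cells described here are the macrophages of RM-1 tumors that carried Mrc1 RNA and no Mmp12 RNA, called Mrc1+ Mmp12- macrophages below. They were chosen by thresholds on their own unique molecular identifiers (UMIs, each standing for 1 captured RNA molecule). A barcode was taken when it had at least 2000 UMIs with at most 20% of them mitochondrial, at least 5 UMIs of C1qa, C1qb and C1qc together, at least 1 Mrc1 UMI and no Mmp12 UMI. At most 1 UMI of the 3 T cell genes Cd3d, Cd3e and Cd3g and at most 4 UMIs of Krt8 and Krt18 were allowed. Of 18860 barcodes within the UMI and mitochondrial limits, 927 met the rule, 529 of 9947 in the control library and 398 of 8913 in the enzalutamide (ENZ) library.

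Both libraries came from orthotopic prostate tumors grown in mice from RM-1, a mouse prostate cancer cell line, and the labels give the genotype of both as WT. The control tumor received vehicle and the other received enzalutamide, an androgen receptor antagonist, with 1 mouse and 1 library for each condition. The study's methods state that immune cells were enriched during sorting and stained for CD45, so shares of cells also depend on that step. The labels call the material prostate cancer cells, whereas the cells here carried macrophage genes. The control library held 170830346 UMIs and the ENZ library 162030149. The members summed to 4714352 and 3256322 UMIs, with a median of 7976 and 7246.5 UMIs and of 2567 and 2539.5 genes per cell. No member barcode occurred in both libraries, and 27 barcodes of at least 2000 UMIs did.

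Macrophages are phagocytes that clear dying cells, present antigen and remodel tissue, and tumors hold both long-lived resident cells and recruits from blood monocytes. Mrc1 encodes the mannose receptor CD206, a scavenger receptor often used to mark M2-like or resident macrophages. Mmp12 encodes macrophage elastase, a secreted protease that cuts elastin, and C1qa, C1qb and C1qc encode the chains of complement C1q, made mainly by macrophages. Levels are given as CPM, the UMIs of a gene for each 1000000 UMIs summed over a class of cells in 1 library. The brackets after a level, ratio or share hold a 95% interval that covers counting error only. With 1 library per condition no test between conditions was possible, and the effect of the drug, of the mouse and of the library cannot be told apart.

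Among the 5 genes given as markers with the rule, C1qa (chr4:136895917-136898803, minus strand) and Mrc1 (chr2:14229392-14332057, plus strand) were part of it, and their levels are only a description. Positions are those of GENCODE M21 on GRCm38. C1qa stood at 2170.2 CPM in control and 1669 CPM in ENZ. Mrc1 stood at 808 CPM in control and 1414 CPM in ENZ, with a median of 4 and 6 UMIs per cell. In control, 97 of the 529 members had a single Mrc1 UMI and 102 had over 10. In ENZ, 46 of the 398 had 1 and 124 had over 10. The shift toward more Mrc1 UMIs per cell in ENZ came with similar totals of UMIs per cell.

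The other 3 markers were not used by the rule. F13a1 (chr13:36867178-37050244, minus strand), which encodes the A subunit of coagulation factor XIII, stood at 327 CPM (311 to 344) in control and 641 CPM (614 to 669) in ENZ. Ccl8 (chr11:82115185-82116799, plus strand), a chemokine that attracts monocytes and T cells, stood at 365 CPM (348 to 383) and 445 CPM (422 to 468). Selenop (chr15:3268547-3280508, plus strand), the secreted carrier of selenium, stood at 816 CPM (791 to 842) and 769.9 CPM (740.0 to 801). All 3 were above the other macrophages and the monocytes in each library. With each cell thinned to 2000 UMIs, F13a1 was seen in 28.9% of control members and 46.7% of ENZ members. The T cells of the same libraries, which should lack it, showed it in 1.62% and 1.92%. T cells were barcodes within the UMI and mitochondrial limits with at least 3 UMIs of Cd3d, Cd3e and Cd3g together. They had at most 4 UMIs of Krt8 and Krt18 and under 5 C1q UMIs, which left out T cell barcodes with much macrophage RNA. Their median depth was 4595 and 4976 UMIs before thinning, and at full depth the shares were 45.6% and 65.8% in members against 4.39% and 4.18% in T cells. Ccl8 was seen in 14.7% and 18.8% of thinned members, and in 2.08% and 1.05% of T cells (26.1% and 28.1% against 5.08% and 1.74% unthinned).

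General macrophage genes were present as well. Adgre1, which encodes F4/80, stood at 170.3 CPM in control and 165 CPM in ENZ. Csf1r, the receptor for the macrophage growth factor CSF1, stood at 326 CPM in control and 347 CPM in ENZ. Mertk, which binds dying cells, stood at 176 CPM in control and 240.2 CPM in ENZ, and Lyz2, a lysozyme, at 5809 CPM in control and 3260.4 CPM in ENZ. Lists of other cells' markers were summed as well. The 6 T cell genes summed to 9.76 and 7.37 CPM, against 1635 and 1654 CPM in T cells, although Cd3d, Cd3e and Cd3g were limited by the rule. The 5 B cell genes summed to 6.58 and 2.76 CPM, and 1 and 3 of them were at 0. The 4 endothelial genes summed to 62.6 and 79.5 CPM, led by Pecam1. The 5 NK cell genes summed to 46.9 and 6.76 CPM. Dendritic cell lists were higher than in T cells: the 4 cDC2 genes, led by Sirpa, summed to 331 and 423 CPM, against 29.9 and 14.2 in T cells. The 4 cDC1 genes, led by Wdfy4, summed to 205 and 144 CPM, against 19.3 and 23.2. Macrophages express Sirpa too. The macrophage genes above fitted the label.

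Neutrophil, mast cell and fibroblast genes were present in these cells, the first 2 sets at a higher level in control. The 5 neutrophil genes, led by S100a9, summed to 1313 CPM in control and 379 CPM in ENZ members, and to 219.8 and 189.9 CPM in T cells. Without each gene's highest cell, the neutrophil genes summed to 1218 and 265 CPM. The 5 fibroblast genes, led by Col3a1, summed to 337 and 167 CPM, but to 76.8 and 94 CPM without each gene's highest cell, so the order of the libraries rested on single cells (75.8% of the control UMIs of Col3a1 lay in 1). The 4 mast cell genes summed to 224 and 4.3 CPM, with Mcpt4 the most abundant in control. Of the UMIs of mast cell genes in control members (with Tpsb2 counted too), 98.2% lay in 5 cells, and 98.8% of the UMIs of 8 adipocyte genes lay in 2 cells. No ENZ member had 5 or more UMIs of either set, in which Fabp4 was not counted. Scrublet, a doublet caller, marked 8 control and 7 ENZ members, and these were kept.

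Within the macrophages, the share of Mrc1+ Mmp12- cells differed between the libraries. They made up 37.1% (34.6 to 39.6) of 1427 C1q macrophages in control and 53.2% (49.6 to 56.8) of 748 in ENZ, a difference of 16.1 percentage points (11.7 to 20.5). Mmp12+ cells made up 46.8% (44.2 to 49.4) and 33.7% (30.3 to 37.2), and cells with neither gene made up 16.1% and 13.1%. Of all barcodes within the limits, however, the Mrc1+ Mmp12- cells were 5.32% (4.89 to 5.78) in control and 4.47% (4.05 to 4.91) in ENZ, a difference of -0.853 percentage points (-1.47 to -0.229). With at least 5000 UMIs per barcode, that difference had the same sign and was larger than this interval holds. C1q macrophages as a whole were 14.3% and 8.39% of barcodes. The larger share among macrophages in ENZ thus came with fewer other macrophages, not with a larger share of all cells.

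Other macrophages of the same libraries were set beside the members in 2 classes. These were 230 control and 98 ENZ cells with C1q and neither Mrc1 nor Mmp12 (Mrc1- Mmp12-), and 668 control and 252 ENZ cells with Mmp12 (Mmp12+), of which 550 and 213 also had an Mrc1 UMI. A class cut by UMIs of 1 gene is a range, and shallow cells fall more easily among those without Mrc1. Monocytes, shown for comparison, were barcodes with at least 5 UMIs of Ly6c2 and Chil3 together and a Csf1r UMI, under 5 C1q UMIs and no Retnlg UMI, so Ly6c2 and Chil3 were high in them by choice. The Mrc1- Mmp12- cells had a median of 5444 and 5525 UMIs and the Mmp12+ cells 9094 and 7819. Calls were a ratio of at least 1.5 times in the same direction in both libraries, among genes of at least 20 CPM in either class and 30 UMIs over both.

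Against the Mrc1- Mmp12- macrophages, most tested genes of a tissue-resident-like list were higher in the members. The list held 22 genes, and those not tested fell under the minimum. Few members carried Timd4 (1.13% in control and 0% in ENZ), Vsig4 (2.65% and 0.754%) or Lyve1 (7.37% and 10.8%). Of 5934 genes, 7.57% were higher in both libraries and 1.15% lower. The list held the markers F13a1, Ccl8 and Selenop, given with the rule, so its counts are not independent of how the cells were picked. Of the 17 tested genes of the list, 15 were higher in both libraries and none lower, but 9 of the 15 reached 20 CPM in members alone in at least 1 library, and could only be counted as higher there. Of the 8 genes that reached it in both classes of both libraries, 6 were higher, with a median log2 ratio of 1.78 in control and 1.74 in ENZ. The median over all tested genes was 0.09 and 0.12. Of 16 scavenger and lectin receptor genes, 4 were higher in both libraries and 2 lower, but of the 13 that reached 20 CPM in both classes 2 were higher and 2 lower.

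Of the 10 highest genes of this comparison, several encode secreted proteins. Ccl8 stood at 28.8 CPM (20.6 to 39) in control and 9.06 CPM (2.94 to 21.1) in ENZ Mrc1- Mmp12- cells, so that the members were 12.7 (9.31 to 17.7) and 49.1 (21 to 151) times higher. Ccl7, a related monocyte chemokine, was 5.03 (3.91 to 6.59) and 27.1 (12.4 to 73.9) times higher, and Pf4, a chemokine first known from platelets, 4.35 (3.81 to 4.99) and 7.19 (5.37 to 9.86) times. Gas6, the bridge between dying cells and the receptor Mertk, was 9.77 (5.65 to 18.5) times higher in control, and in ENZ at least 20.9-fold higher against the 3 UMIs that a count of 0 in the 98 cells allows. With the counting error of the members included, the interval reached down to 16.9. Fcna, a ficolin that activates complement, was 9.44 (5.92 to 16) and 29.5 (10.0 to 143) times higher. Selenop was 4.63 (4.08 to 5.29) and 6.85 (5.33 to 8.97) times higher. F13a1, a marker outside the 10, was 3.48 (2.92 to 4.18) and 3.0 (2.49 to 3.64) times higher.

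Receptors and intracellular proteins were also among the highest. Fcrls, an Fc receptor-like gene and the first of the 10, stood at 106 CPM in control and 63.6 CPM in ENZ members, 18.8 (9.48 to 43.8) times the control Mrc1- Mmp12- level and at least 11.7-fold above the ENZ one by the same limit of 3 UMIs, with an interval reaching down to 9.43. Fcgrt, the neonatal Fc receptor that recycles antibody, was 5.07 (3.75 to 7.01) and 12.7 (6.13 to 31.8) times higher. Npl, which breaks down sialic acid, was 6.95 (4.34 to 11.8) and 18.3 (5.01 to 152) times higher, with 2 UMIs in the ENZ comparison class, and Frmd4b 5.7 (4.5 to 7.33) and 7.9 (5.51 to 11.8) times. Maf, Cd163 and Folr2 were outside the 10. Maf, a transcription factor of resident macrophages, was 3.11 (2.75 to 3.52) and 3.07 (2.56 to 3.72) times higher. Cd163, the scavenger receptor for hemoglobin, stood at 31 CPM (26.1 to 36.4) and 56.8 CPM (48.9 to 65.6) in members and at 0.702 and 1.81 CPM in the Mrc1- Mmp12- cells. The latter levels lay under the limit of 3 UMIs (2.11 and 5.43 CPM). The intervals of the ratio were wide, from 7.80 to 1755 in control and from 5.56 to 1245 in ENZ. Folr2, a folate receptor, was 2.18 (1.69 to 2.84) and 14.2 (4.82 to 69.5) times higher.

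Monocyte genes were lower in members. Of 14 tested genes of a monocyte list, 9 were lower in both libraries and none higher, beside 1.15% and 7.57% of all tested genes. The median log2 ratio over all tested genes was 0.09 in control and 0.12 in ENZ. Of the 13 that reached 20 CPM in both classes, 8 were lower, with a median log2 ratio of -0.62 and -1.01. Ly6c2, the surface antigen of inflammatory monocytes, stood at 43.1 CPM in control and 52.5 CPM in ENZ members, 137 CPM in control and 261 CPM in ENZ Mrc1- Mmp12- cells and 799 CPM in control and 581 CPM in ENZ monocytes. Plac8 stood at 519.9 CPM in control and 301 CPM in ENZ members and 1253 CPM in control and 1406 CPM in ENZ Mrc1- Mmp12- cells. The calcium-binding genes S100a4, S100a6 and S100a11 were 0.509, 0.559 and 0.567 times the Mrc1- Mmp12- level in control and 0.35, 0.578 and 0.537 times in ENZ. Ifitm6, Tmsb10 and F10 were also among the 10 lowest, at 0.463 to 0.582 times in control. Ccl5, the T cell chemokine also called RANTES, was 0.532 (0.443 to 0.64) and 0.292 (0.207 to 0.416) times. Without its 5 highest cells in each class, however, the direction turned (log2 ratio 0.44 and 2.02), so it rests on a few cells. Chil3 was 0.541 (0.464 to 0.632) and 0.497 (0.449 to 0.551) times.

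**Figure D1:**
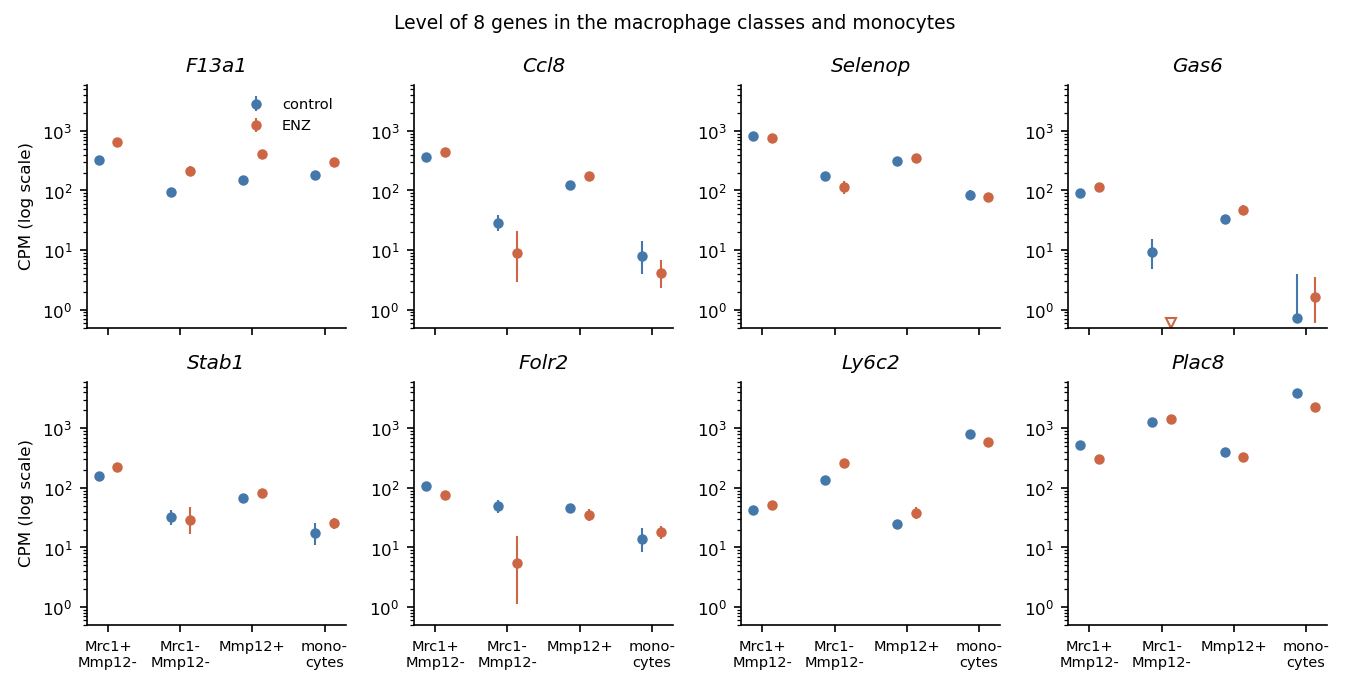
CPM (log axis) of 8 genes in Mrc1+ Mmp12- macrophages, Mrc1- Mmp12- macrophages, Mmp12+ macrophages and monocytes of the control (blue) and ENZ (orange) libraries, with 95% counting intervals, and an open triangle for a class with no UMI. F13a1, Ccl8, Selenop, Gas6, Stab1 and Folr2 are highest in the Mrc1+ Mmp12- cells of both libraries, while Ly6c2, which helped to choose the monocytes, and Plac8 are highest in monocytes.

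Against the Mmp12+ macrophages, 1.66% of 5901 genes were higher in members in both libraries and 0.644% lower. The number of calls cannot be set against that for the Mrc1- Mmp12- cells, since the comparison classes differed in UMIs. With cells thinned to 2000 UMIs 237 genes were higher and 73 lower here, against 265 and 32 there. Thinning also changed the set of members, to 408 control and 277 ENZ cells, so these counts do not reflect depth alone. Of the tissue-resident-like list, which held the markers F13a1, Ccl8 and Selenop, 13 of 17 tested genes were higher in both libraries and none lower. Of the 14 that reached 20 CPM in both classes, 11 were higher, with a median log2 ratio of 1.12 and 1.09, beside 0.05 and 0.06 over all tested genes. Ccl8 ranked first, at 3.01 (2.77 to 3.27) and 2.57 (2.3 to 2.89) times, with Selenop at 2.62 (2.48 to 2.76) and 2.17 (2.0 to 2.35) times. Stab1, a scavenger receptor of resident macrophages, was 2.37 (2.11 to 2.66) and 2.72 (2.3 to 3.22) times higher, and F13a1 2.18 (2.02 to 2.36) and 1.58 (1.46 to 1.71) times. Cp, which encodes the copper ferroxidase ceruloplasmin, was 2.97 (2.4 to 3.69) and 2.88 (2.05 to 4.11) times higher, and Vcam1, an adhesion molecule, 2.08 (1.88 to 2.3) and 2.5 (2.15 to 2.91) times. Fcrls, Gas6, Fcna and Ms4a7 were also among the 10 highest, at 2.3 to 2.65 times in control.

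Genes lower in members than in Mmp12+ cells included secreted proteins and receptors. Ear2, an eosinophil-associated ribonuclease, was 0.302 (0.237 to 0.38) and 0.233 (0.18 to 0.3) times the Mmp12+ level. Areg, a ligand of the EGF receptor, was 0.377 (0.319 to 0.444) and 0.276 (0.195 to 0.386) times, and Mmp13, a collagenase, 0.419 (0.37 to 0.474) and 0.567 (0.491 to 0.653) times. Itgax, which encodes CD11c, was 0.568 (0.493 to 0.654) and 0.533 (0.427 to 0.664) times, and Tnfrsf9, the costimulatory receptor 4-1BB, 0.263 (0.201 to 0.34) and 0.376 (0.28 to 0.501) times. Phlpp1, Tnip3, Rnf217, Flrt3 and Gm41609 were the others among the 10 lowest. MHC class II genes were not called as a group in both libraries, at a median log2 ratio of -0.39 and -0.72, with 1 of 8 lower in both, a gene that reached 20 CPM in Mmp12+ cells alone in at least 1 library. Of all tested genes, 0.644% were lower in both libraries, and their median log2 ratio was 0.05 in control and 0.06 in ENZ.

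**Figure D2:**
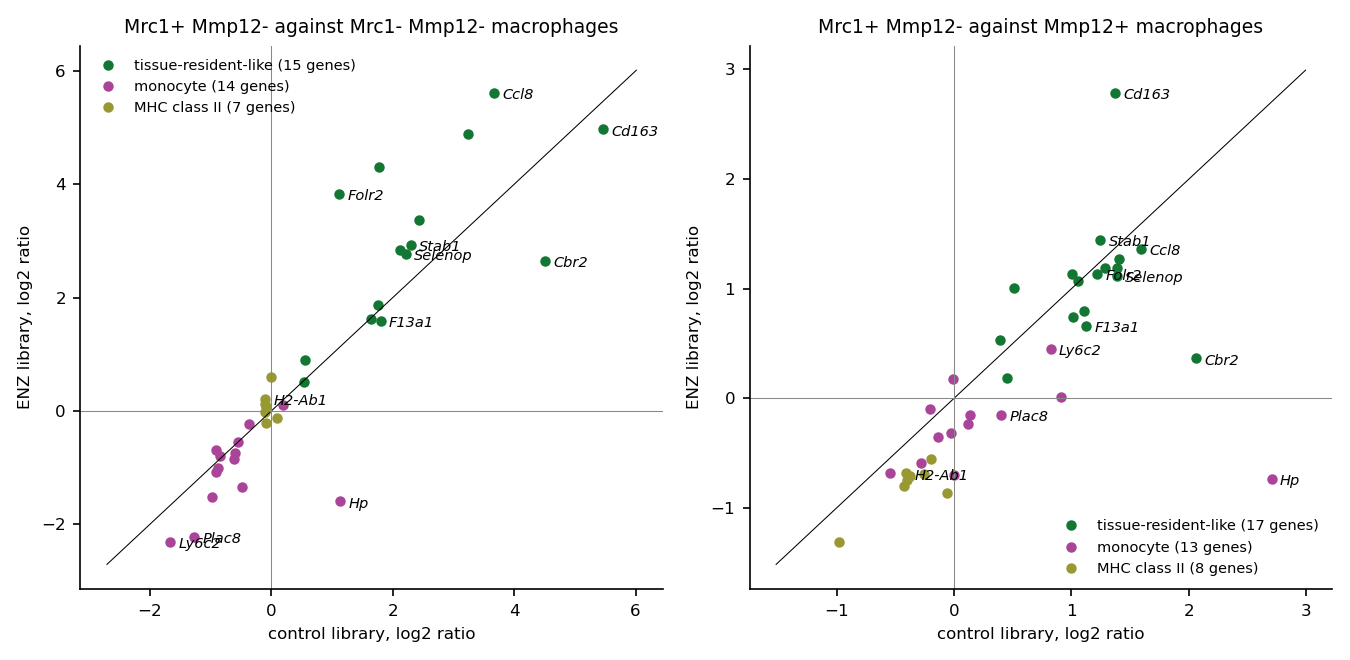
Log2 ratio of Mrc1+ Mmp12- to Mrc1- Mmp12- macrophages (left) and to Mmp12+ macrophages (right) for the tested genes of 3 lists, in the control library (horizontal) and the ENZ library (vertical), with the line of equal ratios; genes with no UMI in the comparison class are left out. Tissue-resident-like genes lie above 0 in both libraries on both sides, and most monocyte genes lie below 0 in both libraries on the left, while on the right their median is 0.00 in control and -0.24 in ENZ.

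The members were not uniform. Each was thinned to 2000 UMIs and binned by its remaining Mrc1 UMIs, which gave 177, 157, 77 and 118 control cells and 80, 98, 60 and 160 ENZ cells with 0, 1, 2 and 3 or more. Median depth before thinning was 7144 to 8567 UMIs over the control bins and 6725.5 to 7832.5 over the ENZ bins. F13a1 went from 127 CPM (92.7 to 170.1) at 0 to 856 CPM (742 to 982) at 3 or more Mrc1 UMIs in control, and from 275 CPM (199.8 to 369) to 1069 CPM (958 to 1188) in ENZ. Ccl8 went from 73.4 CPM (48 to 108) to 1038 CPM (912 to 1177) and from 81.2 CPM (43.3 to 139) to 769 CPM (676 to 871). Selenop went from 469 to 1547 CPM and from 225 to 1244 CPM. These genes were thus highest at the Mrc1-high end of the cells.

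Several other genes followed that gradient in both libraries. Maf went from 421 to 1127 CPM and from 350.0 to 1050.0 CPM, and Stab1 from 62.1 to 389.8 and from 81.2 to 378 CPM. Cbr2, a carbonyl reductase, reached 199 CPM (146 to 265) and 65.6 CPM (40.6 to 100.3) in the highest bin, against 14.1 and 0 CPM in the lowest. Lyve1, a hyaluronan receptor of perivascular macrophages, reached 119 and 96.9 CPM. Apoe, a lipid carrier, went from 6684 to 13403 CPM and from 3050.0 to 6338 CPM. H2-Ab1, a chain of MHC class II, took the other course and went from 2822 CPM (2649.7 to 3003) to 1445 CPM (1296 to 1607) in control and from 1906 CPM (1698 to 2133) to 694 CPM (605 to 791) in ENZ. Chil3 went from 862 to 278 CPM in ENZ and from 110.2 to 42.4 CPM in control.

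**Figure D3:**
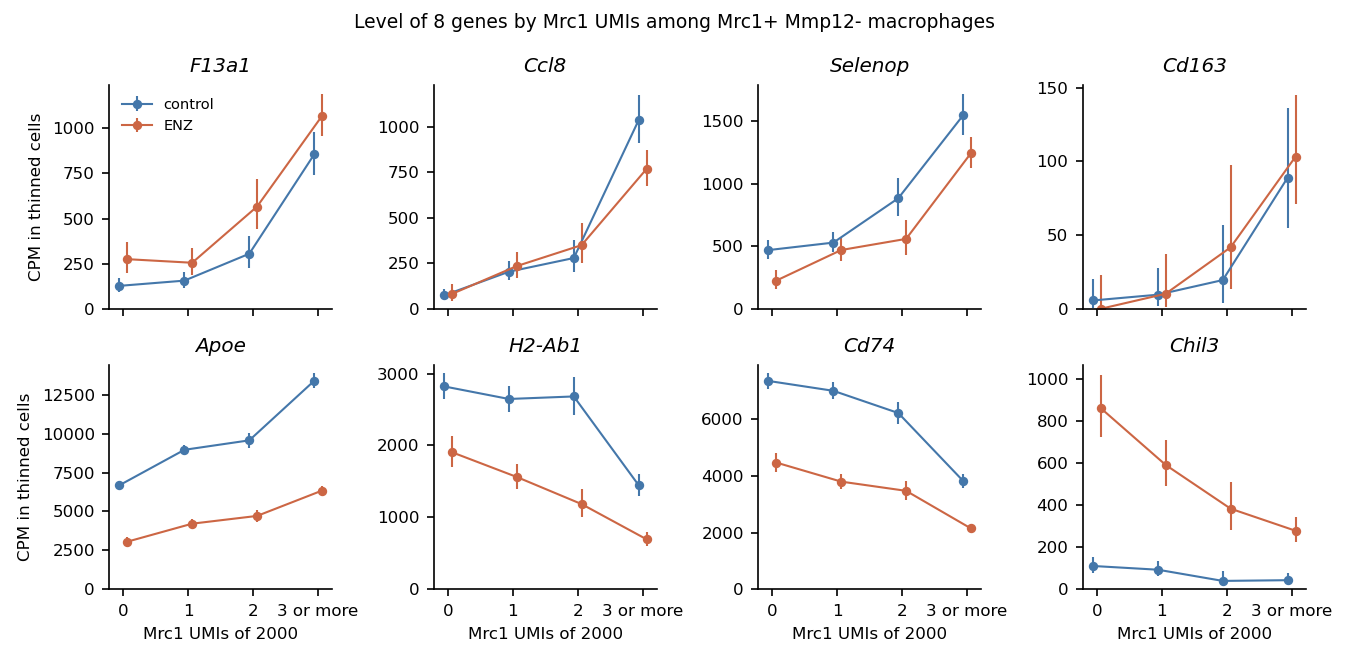
CPM of 8 genes in Mrc1+ Mmp12- macrophages thinned to 2000 UMIs each, by thinned Mrc1 UMIs, in control (blue) and ENZ (orange), with 95% counting intervals. F13a1, Ccl8, Selenop, Cd163 and Apoe are highest and H2-Ab1, Cd74 and Chil3 near their lowest in cells with 3 or more Mrc1 UMIs.

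The UMIs of the 3 markers were also counted together in each cell. A cell without a UMI at this depth may still carry the RNA. In thinned cells, 37.1% (32.9 to 41.3) of control members showed none of F13a1, Ccl8 and Selenop and 7.37% (5.29 to 9.94) showed all 3, against 29.1% (24.7 to 33.9) and 11.3% (8.37 to 14.8) in ENZ. At full depth, the median control member had 393 CPM of Selenop, with quartiles of 84.6 and 1065 and a highest cell of 6943. The median ENZ member had 343 CPM, with quartiles of 77 and 990.0. Ccl8 was more uneven: 73.9% of control and 71.9% of ENZ members had none, while the 5 highest cells held 36.2% and 30.7% of its UMIs. At the edge of the rule, the 97 control and 46 ENZ members with 1 Mrc1 UMI had 75.7 and 192 CPM of F13a1, against 94.0 and 214 CPM in the cells with none. Ccl8 stood at 39.2 and 51.4 CPM in the former and 28.8 and 9.06 CPM in the latter, and Selenop at 234 and 202 against 176 and 112 CPM. Members with exactly 5 C1q UMIs (14 and 16 cells) had 91.6 and 177 CPM of Selenop, and cells with 4 (23 and 10 cells) had 171 and 292 CPM. Cells across the Mmp12 limit, with 1 Mmp12 UMI (107 control and 46 ENZ), had 196 and 499 CPM of F13a1, against 327 and 641 CPM in members. Ccl8 stood at 116 and 381 CPM in them, against 365 and 445 CPM, and Selenop at 417 and 608 against 816 and 770 CPM.

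Between the libraries, 6501 genes were tested in the members, of which 8.75% were at least 1.5 times higher in ENZ and 5.08% at least 1.5 times lower. The median log2 ratio over these genes was 0.12. With median-of-ratios scaling instead of total UMIs, 308 genes were higher and 519 lower, in place of 569 and 330, so the balance of the directions depends on the scaling. Gm42418, a gene model that overlaps the ribosomal RNA repeat, took 27546 CPM in control and 79269 CPM in ENZ. The 11 genes of the list that holds it, with Lars2, Cmss1, Cdk8 and Camk1d among them, summed to 38566 and 97284 CPM in members and to 51331 and 103800.0 CPM in T cells. Without these, the mitochondrial and the ribosomal protein genes in the totals, 833 genes were higher and 352 lower. Whether the counts of Camk1d and the other genes of that list stem from ribosomal RNA was not tested.

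Some genes of type 2 responses were higher in ENZ members. Of 16 tested genes of an M2-like and IL-4 response list (Mrc1, part of the rule, not counted), 6 were higher and none lower, beside 8.75% and 5.08% of all tested genes. Of the 14 that reached 20 CPM in both libraries, 5 were higher, with a median log2 ratio of 0.48. The rise was not particular to the members. The median of all tested genes of the list was 0.50 in members, 0.26 in Mrc1- Mmp12- cells, 0.75 in Mmp12+ cells and 0.35 in monocytes. Over every gene tested in each class it was 0.12, 0.06, 0.12 and 0.02. Slc7a2, an arginine transporter outside the list, stood at 11.5 CPM in control and 73.1 CPM in ENZ, a ratio of 6.38 (4.73 to 8.74). Chil3, the chitinase-like protein Ym1, stood at 99.1 CPM in control and 455 CPM in ENZ, a ratio of 4.6 (4.14 to 5.11). Ccl24, an eosinophil chemokine, stood at 246 CPM in control and 1138 CPM in ENZ, a ratio of 4.62 (4.32 to 4.94). These 3 were higher in ENZ also in the Mrc1- Mmp12- cells, the Mmp12+ cells and the monocytes, although Chil3 helped to choose the last. The ENZ to control ratio of Ccl24 was 8.06, 3.94 and 6.54 there. Other members of the list were not called: Mgl2, a lectin, stood at 235 CPM in control and 195 CPM in ENZ, and Msr1, a scavenger receptor, at 308 CPM in control and 458 CPM in ENZ.

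Saa3, an acute-phase protein, led the genes ranked by the lower bound of their ratio, at 4.24 CPM in control and 494 CPM in ENZ. It was seen in 1.51% and 17.8% of members, against 0% and 5.57% of T cells (thinned, 0.945% and 9.55% against 0% and 2.26%), and the 5 highest ENZ cells held 70.1% of its UMIs. Igfbp3 and Rasgrf1, also among the 10 highest, were carried by 1 cell each (88.1% and 96.3% of their ENZ UMIs). Cdk8, Gm19951 and Gm42418 were in the 10 as well, at ratios of 3.76, 3.8 and 2.88, and each was higher in the other 3 classes too. Among genes seen in at least 10% of members of either library, a limit chosen after the values were seen, Fkbp5 ranked next after these. Fkbp5, a chaperone induced by glucocorticoids, stood at 43.7 CPM (37.9 to 50.1) and 138 CPM (126 to 152), a ratio of 3.16 (2.68 to 3.75). Klf9, another glucocorticoid target, stood at 23.1 CPM in control and 52.2 CPM in ENZ. In all, 2 of 9 tested genes of the androgen and glucocorticoid list were higher and none lower, beside 8.75% and 5.08% of all tested genes (median log2 0.40 beside 0.12).

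The lowest genes in ENZ members were largely those of other cells. Cfd, Car3, Scd1 and Fabp4, genes of adipocytes, stood at 202, 77.6, 99.3 and 231 CPM in control, and 99.8%, 99.7%, 98.1% and 97.5% of these UMIs came from the highest control cell of each. Fabp4, also carried by macrophages and endothelial cells, stood at 44.8 CPM in ENZ, with 92.5% of the UMIs in 1 cell, and its direction turned when cells with mast cell or adipocyte genes were left out (log2 ratio 2.94). Mcpt4, Cma1 and Tpsb2, proteases of mast cells, had 99.1%, 99.5% and 98.9% of their control UMIs in 5 cells. Hp had 77.2% in 1 cell, and Gm42884 92.4%. The direction of Hp also turned with thinned cells and without cells carrying other lineages' markers, and that of Scd1 under several alternatives. G0s2, an inhibitor of lipolysis that neutrophils also carry, was more widespread, at 122 CPM in control and 14.4 CPM in ENZ, a ratio of 0.119 (0.0861 to 0.16), seen in 9.64% and 1.26% of thinned members and 0.924% and 1.22% of thinned T cells (16.6% and 3.52% against 3.23% and 1.92% unthinned). S100a9 and S100a8, the subunits of calprotectin, stood at 839.8 CPM in control and 196 CPM in ENZ and at 321 CPM in control and 107 CPM in ENZ. In thinned cells S100a9 was seen in 19.8% and 9.8% of members and 10.6% and 5.92% of T cells (37.8% and 22.1% against 21.7% and 12.7% unthinned), and the part of neutrophil RNA in this was not tested.

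MHC class II was lower in ENZ members as a group. Of 8 tested genes 7 were lower and none higher, with a median log2 ratio of -0.90, and 6 of the 7 that reached 20 CPM in both libraries were lower. Of all genes tested in the members, 5.08% were lower and 8.75% higher, with a median log2 ratio of 0.12. Cd74, the invariant chain, stood at 6004 CPM (5934 to 6074) and 3137 CPM (3076 to 3198), a ratio of 0.523 (0.511 to 0.534). H2-Aa stood at 2485 CPM (2440.2 to 2530.4) and 1327 CPM (1288 to 1367), a ratio of 0.534 (0.516 to 0.553). H2-Ab1 stood at 2336 CPM (2293 to 2380.3) and 1181 CPM (1144 to 1219), a ratio of 0.505 (0.487 to 0.524). H2-Eb1 stood at 2186 CPM (2144 to 2228) and 1062 CPM (1026 to 1098), a ratio of 0.486 (0.467 to 0.505). These 3 encode the classical alpha and beta chains that hold peptide. H2-DMa, H2-DMb1 and H2-DMb2, which load the peptide, had ratios of 0.608 (0.558 to 0.662), 0.536 (0.484 to 0.593) and 0.582 (0.402 to 0.829). Ciita, the coactivator of the group, stood at 35.4 CPM in control and 27.6 CPM in ENZ, a ratio of 0.78 (0.597 to 1.01), and was not called. The same list had a median log2 ratio of -1.02 in the Mrc1- Mmp12- cells, -0.51 in the Mmp12+ cells and -0.85 in monocytes. There 5 of 7, 3 of 8 and 8 of 8 tested genes were lower, beside 12.6%, 4.77% and 8.0% of all genes tested in each class. Of this list, H2-Ab1 and Cd74 were followed by Mrc1 bin and stood lower in ENZ in each, with H2-Ab1 at 1445 and 694 CPM in the cells of 3 or more Mrc1 UMIs.

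MHC class II promoters share a conserved module, of which the Y box, an inverted CCAAT element bound by NF-Y, is the part nearest the start of transcription. The RefSeq promoter table (GRCm38.p6) held windows for 5 of the 8 tested genes, and 4 of these carried GATTGG or its reverse complement within the 150 bases before the start. Over all 32851 windows of the table, 10.9% did so on either strand. The 4 windows are shown because these genes were called lower together, although H2-DMb2 was under 20 CPM in ENZ and could only be called lower. Each is given 5′ to 3′ on the strand of the gene and ending at the base before the start, with the match in capitals. They lie at chr17:34287824-34287973 (minus strand), chr17:34305717-34305866, chr17:34153041-34153190 and chr17:34145099-34145248 (plus strand). A match is a description of the letters and not a measured site.
H2-Aa: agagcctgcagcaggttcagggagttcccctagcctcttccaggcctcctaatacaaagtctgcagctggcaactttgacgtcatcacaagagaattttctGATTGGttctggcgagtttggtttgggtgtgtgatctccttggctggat
H2-Eb1: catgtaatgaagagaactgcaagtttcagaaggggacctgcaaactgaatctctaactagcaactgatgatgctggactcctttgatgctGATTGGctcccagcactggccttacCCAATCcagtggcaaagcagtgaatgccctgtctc
H2-DMb1: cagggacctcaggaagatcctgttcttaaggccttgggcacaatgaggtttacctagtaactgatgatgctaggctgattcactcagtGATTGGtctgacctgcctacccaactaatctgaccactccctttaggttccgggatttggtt
H2-DMb2: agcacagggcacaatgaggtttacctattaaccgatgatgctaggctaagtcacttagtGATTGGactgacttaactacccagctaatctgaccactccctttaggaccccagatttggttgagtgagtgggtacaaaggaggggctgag
The forward match began 49 bases before the start in H2-Aa, 60 in H2-Eb1, 62 in H2-DMb1 and 91 in H2-DMb2, and H2-Eb1 held a reverse match as well.

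**Figure D4:**
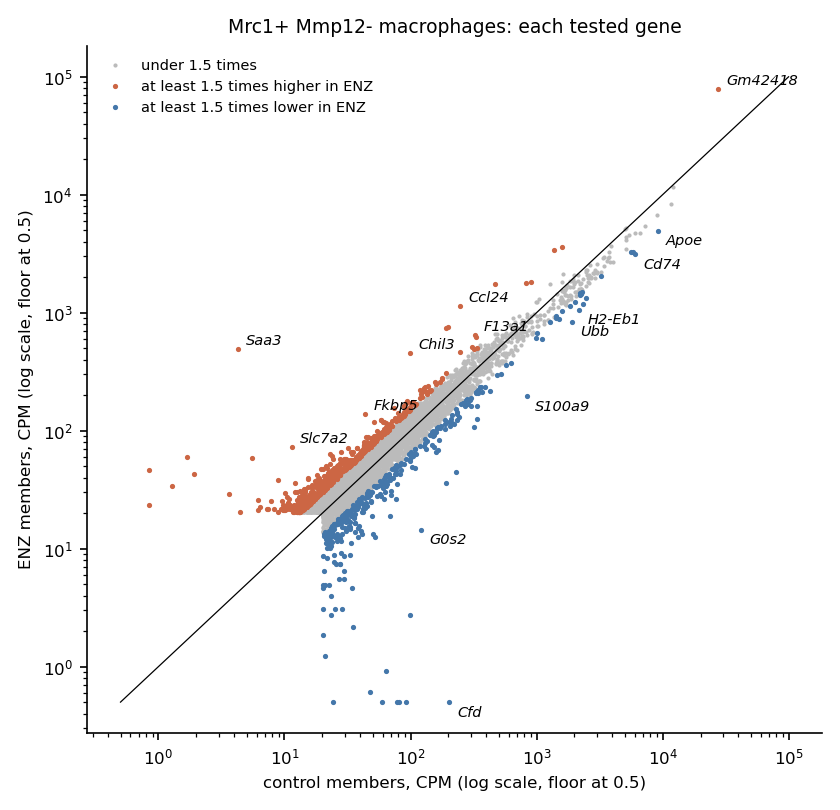
CPM of each tested gene in control (horizontal) and ENZ (vertical) Mrc1+ Mmp12- macrophages, both log axes with values under 0.5 drawn at 0.5, without the genes of the rule; orange and blue points are at least 1.5 times higher and lower in ENZ. Saa3, Chil3, Ccl24 and Gm42418 lie above the diagonal and S100a9, G0s2, Cd74 and H2-Eb1 below it.

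Lipid and inflammatory genes were mixed, and their counts stand beside the 8.75% higher and 5.08% lower of all tested genes. Apoe stood at 9149.5 CPM (9063 to 9236) and 4969.7 CPM (4893 to 5047), a ratio of 0.543 (0.533 to 0.553), and the ratio was 0.656 in Mmp12+ cells and 0.922 in monocytes. In the lipid-associated list 5 of 21 genes were lower and 1 higher, with a median log2 ratio of -0.14. Pltp, a phospholipid transfer protein, and Cd9 were lower, at ratios of 0.599 (0.521 to 0.688) and 0.623 (0.549 to 0.706), and Gpnmb, a lysosomal glycoprotein under 20 CPM in control, was higher at 2.07 (1.49 to 2.89). Trem2, a lipid receptor, was not called, at 132 CPM in control and 107 CPM in ENZ. In the cholesterol and LXR list 6 of 18 genes were higher and 3 lower, but 2 of the 6 reached 20 CPM in ENZ alone, and of the 15 that reached it in both libraries 4 were higher and 3 lower. The higher ones included Hmgcs1, an enzyme of cholesterol synthesis, and Srebf2, an activator of that pathway, at ratios of 1.67 (1.33 to 2.1) and 1.84 (1.56 to 2.17). Of 16 M1-like genes 1 was higher and 3 lower (median log2 -0.01): Cxcl9 was higher at 1.54 (1.15 to 2.05), with 75.7% of its ENZ UMIs in 5 cells, and Cxcl10 and Ccl5 were lower at 0.594 (0.535 to 0.658) and 0.409 (0.322 to 0.517). Il1b, an inflammatory cytokine, was lower as well, at 2016 CPM in control and 1222 CPM in ENZ, a ratio of 0.606 (0.584 to 0.629). Tnf was not called, at 46.9 CPM in control and 45.1 CPM in ENZ. Of 20 interferon-stimulated genes 4 were lower and none higher (median log2 -0.18), with 2 of the 4 under 20 CPM in ENZ. Among the lower were Isg15 at 0.538 (0.481 to 0.602) and Bst2 at 0.589 (0.532 to 0.651). In the Mmp12+ cells this list went the other way, with a median log2 ratio of 0.43. It was -0.15 in the Mrc1- Mmp12- cells and -0.23 in the monocytes.

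A few resident genes were called between the libraries. Of 17 tested tissue-resident-like genes 2 were higher in ENZ and 1 lower, beside 8.75% and 5.08% of all tested genes (median log2 0.18, close to that of all genes). F13a1 and Cd163 were higher, at ratios of 1.96 (1.83 to 2.09) and 1.83 (1.47 to 2.29), and Cbr2 was lower at 0.534 (0.426 to 0.666). F13a1 was higher in ENZ also in the Mrc1- Mmp12- cells, the Mmp12+ cells and the monocytes, at 2.27, 2.7 and 1.66 times. In the Mmp12+ cells, Cd163 and Cbr2 went the other way than in members, at 0.688 (0.389 to 1.15) and 1.73 (1.24 to 2.4) times. The 5 highest ENZ cells held 51.4% of the Cd163 UMIs. Selenop and Ccl8 had ratios of 0.943 (0.897 to 0.992) and 1.22 (1.14 to 1.31), Folr2 0.724 (0.62 to 0.844) and Lyve1 1.13 (0.907 to 1.41). Within bins of Mrc1 UMIs, F13a1 stood higher in ENZ at 0, 1, 2 and 3 or more, with 127 against 275, 156 against 255, 305 against 567 and 856 against 1069 CPM, and Selenop was lower in ENZ in every bin, from 469 against 225 CPM at 0 to 1547 against 1244 CPM at 3 or more.

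Cell cycle, matrix protease, iron and transcription factor lists are given beside the 8.75% higher and 5.08% lower of all tested genes and their median log2 ratio of 0.12. Of 16 cell cycle genes 8 were higher and none lower (median log2 0.59), but 4 of the 8 reached 20 CPM in ENZ alone, and of the 12 that reached it in both libraries 4 were higher (median log2 0.32). Mki67, a marker of dividing cells, stood at 44.5 CPM in control and 89.1 CPM in ENZ, a ratio of 2.0 (1.67 to 2.4), and Mcm3, part of the replicative helicase, at 20.8 CPM in control and 41.5 CPM in ENZ, a ratio of 1.99 (1.53 to 2.61). Pcna stood at 104 CPM in control and 113 CPM in ENZ and was not called. Mki67 was seen in 8.13% and 10.8% of thinned members and 15.7% and 16.7% of thinned T cells, which also divide (20.6% and 23.9% against 26.3% and 29.8% unthinned). Of 12 matrix protease genes 5 were higher and none lower (median log2 0.43), among them Mmp14, a membrane-bound collagenase, at 127 CPM in control and 215 CPM in ENZ, and Mmp13 at 70.8 CPM in control and 111 CPM in ENZ. Fn1, the matrix protein fibronectin, stood at 333 CPM in control and 620.3 CPM in ENZ, a ratio of 1.86 (1.74 to 1.99). Of 15 iron and heme genes 4 were higher and 2 lower, and of the 13 that reached 20 CPM in both libraries 3 and 1. Hmox1, which breaks down heme, stood at 179 CPM in control and 280.1 CPM in ENZ. Its 5 highest cells held 20.4% of its control and 32.1% of its ENZ UMIs. Slc40a1, the iron exporter ferroportin, stood at 33.5 CPM in control and 65.7 CPM in ENZ, with 39.7% of its ENZ UMIs in 1 cell. Blvrb, a biliverdin reductase, was lower at 221 CPM in control and 115 CPM in ENZ. Among transcription factors 5 of 25 were higher and 1 lower, and of the 22 that reached 20 CPM in both libraries 4 and none, with Klf2 at 127 CPM in control and 232 CPM in ENZ and Klf4 at 109.9 CPM in control and 167 CPM in ENZ among the higher, and Spi1, which encodes PU.1, at 332 CPM in control and 297 CPM in ENZ and not called.

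**Figure D5:**
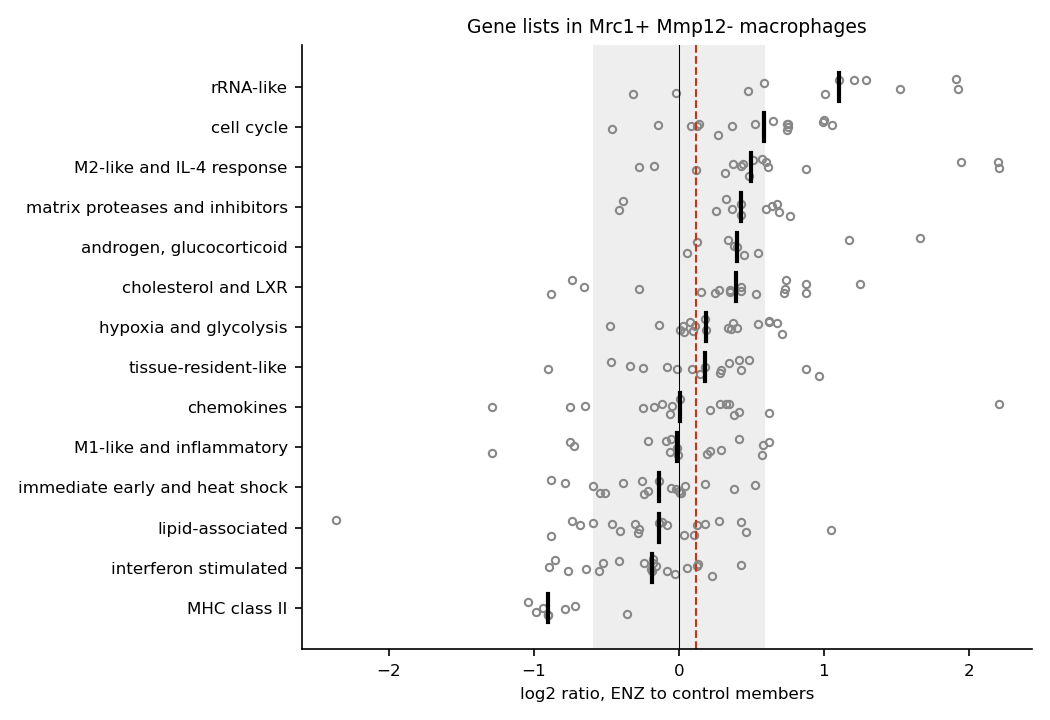
Log2 ratio of ENZ to control Mrc1+ Mmp12- macrophages for each tested gene (open circles) of 14 lists, with the list's median (black bar), the median of all tested genes (dashed red line) and the band under 1.5 times (grey). The MHC class II genes lie below 0, with a median of -0.90, and the median of the M2-like list lies at 0.50.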

How the data were processed

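Single-cell RNA of 2 libraries, 1 from a vehicle-treated and 1 from an enzalutamide-treated RM-1 tumor, was analysed. The deposited values are unnormalized UMI counts for every listed barcode, before any cell calling by the authors. The submitters' processing notes name Cell Ranger 2.1.1 and mm10 and the matrix headers Cell Ranger 7.2.0, and whether intronic reads were counted is not given in the sources used here. From these counts, barcodes were classed by UMI thresholds, UMIs were summed per class and library, and CPM was computed with scipy 1.17.1 and pandas 2.3.3 (Python 3.11.15, numpy 2.4.6). Intervals are exact Poisson for levels, exact conditional binomial for ratios, Clopper-Pearson for shares and Newcombe for differences of shares. PCR reads were collapsed to UMIs, and the intervals cover no variation between mice. A gene was tested with at least 20 CPM in either group and 30 UMIs over both, and called at a ratio of 1.5 times. For thinning, 2000 UMIs were drawn from each cell, and no member was shallower. Scrublet in scanpy 1.11.5 marked 248 control (2.49%) and 258 ENZ (2.89%) barcodes at 1 threshold of 0.241, since the control library's own threshold marked 0.01%. Free RNA was estimated from C1q UMIs in T cells at 3.46% and 3.40%. These T cells were chosen with under 5 C1q UMIs, so barcodes with more did not enter the estimate. The 10 highest and 10 lowest genes of each comparison with at least 50 CPM, ranked by the interval bound nearer to 1, the rule genes, the 5 markers and members of 27 gene lists and 13 lists of other cell types could be named. The members and the lists were chosen with earlier results of these data known. Of the alternatives, 13 were planned and 3 were chosen after seeing the data. The script was tested on simulated data. Some items that the rule would name are not reported here.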

Additional observations from a re-analysis of the deposited data

How the results depend on the processing

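No paired analysis was possible because no test between samples was made, with a single library on either side. The share of Mrc1+ Mmp12- cells among C1q macrophages differed by 15.8 to 17.7 percentage points under every alternative run for it. The difference among all barcodes kept its sign and was -1.52 points with at least 5000 UMIs per barcode. Counts of called genes moved with the filters. Between ENZ and control, 867 genes were higher and 537 lower with cells thinned to 2000 UMIs. Thinning also changed the set of members, to 408 control and 277 ENZ cells. Of the 569 higher and 330 lower main calls, 247 and 174 were shared with it. The counts were 308 and 519 with median-of-ratios scaling, 89 and 100 at a minimum of 100 CPM, and 1291 and 905 with no CPM minimum. Against Mrc1- Mmp12- cells, 265 were higher and 32 lower when thinned, 102 and 24 at 100 CPM, and 819 were higher with no CPM minimum. There 106 were lower when rRNA-like, ribosomal protein and mitochondrial genes were left out, and 780 were higher and 39 lower without each gene's 5 highest cells. Against Mmp12+ cells, 237 were higher and 73 lower when thinned, 194 and 66 without cells carrying other lineages' markers, 29 and 8 at 100 CPM, and 253 and 77 with no CPM minimum. Of 104 called gene values, 90 to 104 stayed past 1.5 times in the same direction under each alternative in which they could be computed, with 90 of 95 without the 5 highest cells and 92 of 100 when thinned. The log2 ratio of ENZ to control of 3 genes turned. For Scd1 it became 0.53 at no more than 10% mitochondrial UMIs, 0.59 at 2 or more Mrc1 UMIs, 0.17 at 10 or more C1q UMIs, 0.93 without other lineages, 0.24 without the 5 highest cells and 0.51 without cells carrying mast cell or adipocyte genes. For Fabp4 it became 2.96, 3.60 and 2.98 under the first 3 of these and 2.94 under the last. Hp became 0.27 when thinned and 0.024 without other lineages. Ccl5 against Mrc1- Mmp12- cells turned to 1.12 in ENZ with 10 or more C1q UMIs, and to 0.44 in control and 2.02 in ENZ without the 5 highest cells. The median log2 ratio of the MHC class II list lay between -1.02 and -0.87 under each alternative, and that of the cell cycle list between 0.47 and 0.62, on both sides of 1.5 times. The alternatives without the 5 highest cells, without mast cell or adipocyte genes, and with genes seen in at least 10% of members were chosen after seeing the data.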
